A study of Homo sapiens with 3 samples.

Results

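A module of 54 human genes of the G2 phase and of mitosis was followed in single HCT116 cells. The genes were chosen by symbol, and all 54 were among the 19912 genes of the count matrices. They comprised 5 genes of the mitotic cyclin-dependent kinase and its partners, 4 of ubiquitin ligases and mitotic exit, 5 mitotic and checkpoint kinases, 9 genes of the centromere, kinetochore and passenger complex, 15 of the spindle, 4 of cytokinesis, 10 of chromosomes and chromatin, and 2 of the nuclear envelope.

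HCT116 is an established human colorectal carcinoma cell line, here carrying H2b-GFP, a fluorescent histone that marks the nucleus. The cells were cultured in an organ-on-chip, a device with a top and a bottom channel in which tissue can be stretched, and the study asked how peristaltic stretch bears on tumor cell invasion. The 3 libraries were stretched bottom (HCT116-H2b-GFP cells under peristalsis for 6 days, recovered from the bottom channel and therefore labelled invaded), stretched top (the same line and treatment, recovered from the top channel, not invaded) and not stretched top (the same line without peristalsis, top channel, not invaded). All cells were released with trypsin and sorted for GFP before droplet capture, so every library holds only cells that passed that gate. Each condition was 1 library, the number of chips behind it is not given in the sources used here, and differences below therefore have no replicate check.

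In G2, cells that have copied their DNA accumulate cyclin B and the kinase CDK1, and a wave of transcripts for spindle, kinetochore and cytokinesis proteins builds up that lasts into mitosis and is cleared after division. The DREAM complex holds these genes down in resting and G1 cells through a promoter element called CHR, and a related complex with MYBL2 and FOXM1 turns them on in G2, often together with the factor NF-Y at CCAAT boxes. In a tumor cell line the summed level of such genes is widely used as a readout of how many cells are in G2 or mitosis and how far they are in it.

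CHR and CCAAT letters were common in the members' promoters. RefSeq promoter windows of GRCh38.p14, from 250 bases before to 50 after each gene's start, were found for 45 of the 54 members; TPX2, BIRC5, CDCA2, PIMREG, UBE2C, ANP32E, AURKA, TTK and HMGB2 had no entry. CHR was searched as TTTGAA or TTTAAA and the CCAAT box as CCAAT, on both strands, and their letters can overlap. CHR letters stood in 39 of the 45 members (86.7%), against 21.1% of 7158 genes tested for expression, members included, and 27.9% of all 27305 genes of the table. A CCAAT box stood in 32 members (71.1%), against 43.9% of tested genes, and both elements stood in 28 members (62.2%), against 9.05%. An element of the kind bound by E2F in S phase promoters, searched as TTCCCGC in its first form, TTGGCGC in the next, then as TTCGCGC and lastly as TTGCCGC, on both strands, stood in 12 members (26.7%), against 27.0% of tested genes. Within the 120 bases before the start, CHR letters began in 29 of 45 members (64.4%), against 8.79% of tested genes.

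The 120 bases before the start are shown for 7 members that the results turn on and for CTCF, a member without either element there, with CHR and CCAAT letters on either strand in capitals (a CCAAT box on the other strand reads ATTGG). CCNB2, a cyclin partner of CDK1, lies at chr15:59105026-59105145 on the plus strand and holds 3 CCAAT boxes ahead of 1 CHR. CDK1 lies at chr10:60778358-60778477, plus strand, and holds 2 of each. CDC20, the activator of the anaphase-promoting complex, lies at chr1:43358861-43358980, plus strand. CKS1B, a small subunit of cyclin-dependent kinases, lies at chr1:154974561-154974680, plus strand. KIF23, a motor of the cell division midzone, lies at chr15:69414229-69414348, plus strand. HMMR, a spindle assembly protein, lies at chr5:163460512-163460631, plus strand, with 2 CHR matches in tandem. MKI67, the proliferation antigen Ki-67, lies at chr10:128126424-128126543, minus strand. CTCF, an insulator protein, lies at chr16:67562406-67562525, plus strand.
CCNB2: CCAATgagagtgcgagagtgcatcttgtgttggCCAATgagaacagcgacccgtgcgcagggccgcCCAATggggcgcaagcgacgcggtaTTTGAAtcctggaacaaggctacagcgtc
CDK1: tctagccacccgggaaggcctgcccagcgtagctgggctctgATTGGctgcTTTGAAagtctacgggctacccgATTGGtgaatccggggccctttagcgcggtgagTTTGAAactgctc
CDC20: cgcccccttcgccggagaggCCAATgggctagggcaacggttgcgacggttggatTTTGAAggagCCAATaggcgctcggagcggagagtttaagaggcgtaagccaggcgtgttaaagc
CKS1B: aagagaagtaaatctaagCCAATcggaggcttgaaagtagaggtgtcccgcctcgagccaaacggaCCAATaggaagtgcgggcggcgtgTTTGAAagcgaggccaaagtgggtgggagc
KIF23: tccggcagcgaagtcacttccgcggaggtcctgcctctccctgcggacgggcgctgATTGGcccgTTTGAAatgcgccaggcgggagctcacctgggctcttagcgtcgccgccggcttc
HMMR: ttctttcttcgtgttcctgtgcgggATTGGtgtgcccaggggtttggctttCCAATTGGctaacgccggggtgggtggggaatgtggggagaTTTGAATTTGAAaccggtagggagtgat
MKI67: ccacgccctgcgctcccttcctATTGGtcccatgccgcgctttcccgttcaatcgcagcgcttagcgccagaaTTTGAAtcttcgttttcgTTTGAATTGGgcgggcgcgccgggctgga
CTCF: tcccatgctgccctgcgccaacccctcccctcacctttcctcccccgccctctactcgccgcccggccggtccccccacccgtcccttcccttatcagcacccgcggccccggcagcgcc
CHR and CCAAT letters lie close together in the first 7 stretches, and CTCF shows a GC-rich stretch without them. A match is only a match of letters, and binding was not measured.

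The 3 libraries differed in depth, which touches every value below. A cell was kept with 500 or more detected genes, 1000 or more unique molecules (UMIs) and no more than 20% from the mitochondrial genome (MT- genes), and on this filter 1951 of 3513 barcodes remained in stretched bottom, 20121 of 25169 in stretched top and 17206 of 26106 in not stretched top. They held 76641034, 210814252 and 212503735 UMIs in that order, and the median kept cell had 40387, 9384 and 10964 UMIs and 4.09%, 10.4% and 9.64% MT- UMIs. Kept cells of stretched bottom shared 9 barcodes with stretched top and 6 with not stretched top, and the 2 top libraries shared 88. All 10 epithelial markers exceeded 10 CPM in each library, whereas none of 6 endothelial, 6 fibroblast and 6 leukocyte markers did, the highest being 7.79 CPM. The endothelial markers summed to 5.25, 1.68 and 1.89 CPM in stretched bottom, stretched top and not stretched top. The fibroblast markers summed to 4.46, 5.60 and 8.65 CPM, and the leukocyte markers to 5.19, 5.81 and 6.56 CPM, in the same order. Levels are given as counts per 1000000 UMIs (CPM) over the kept cells; because the assay counts the 3′ end of each transcript, CPM does not scale with transcript length. Intervals are exact 95% intervals for counting error only.

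Most members were higher in stretched bottom than in stretched top cells. All 54 had at least 10 CPM in every library, and 45 were at their highest in stretched bottom, 9 in not stretched top and none in stretched top. The highest library was not counted over all genes. Between stretched top and not stretched top, 1626 of 9119 tested genes had a log2 ratio above 0, and so did 5 of 54 members. At a threshold of 1.5-fold, on the log2 scale with 1 CPM added, 22 of 54 members (40.7%) were higher in stretched bottom than in stretched top, where 7.93% of 8870 genes passed (those reaching 10 CPM in either of the 2 libraries), and 0 were lower, where 11.0% of all genes were. The members' log2 ratios ran from -0.28 to 0.98 with a median of 0.51, and 52 of 54 lay above 0, while the median over all tested genes was -0.00. Fold intervals lay wholly above 1 for 50 members and wholly below 1 for 2. Stretched bottom cells were also deeper and lower in MT- UMIs, and in cells of one depth range (20000 to 60000 UMIs) 0 members were higher and 1 was lower, where 4.73% and 9.55% of all genes were, and the members' median log2 ratio was -0.05.

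**Figure D1:**
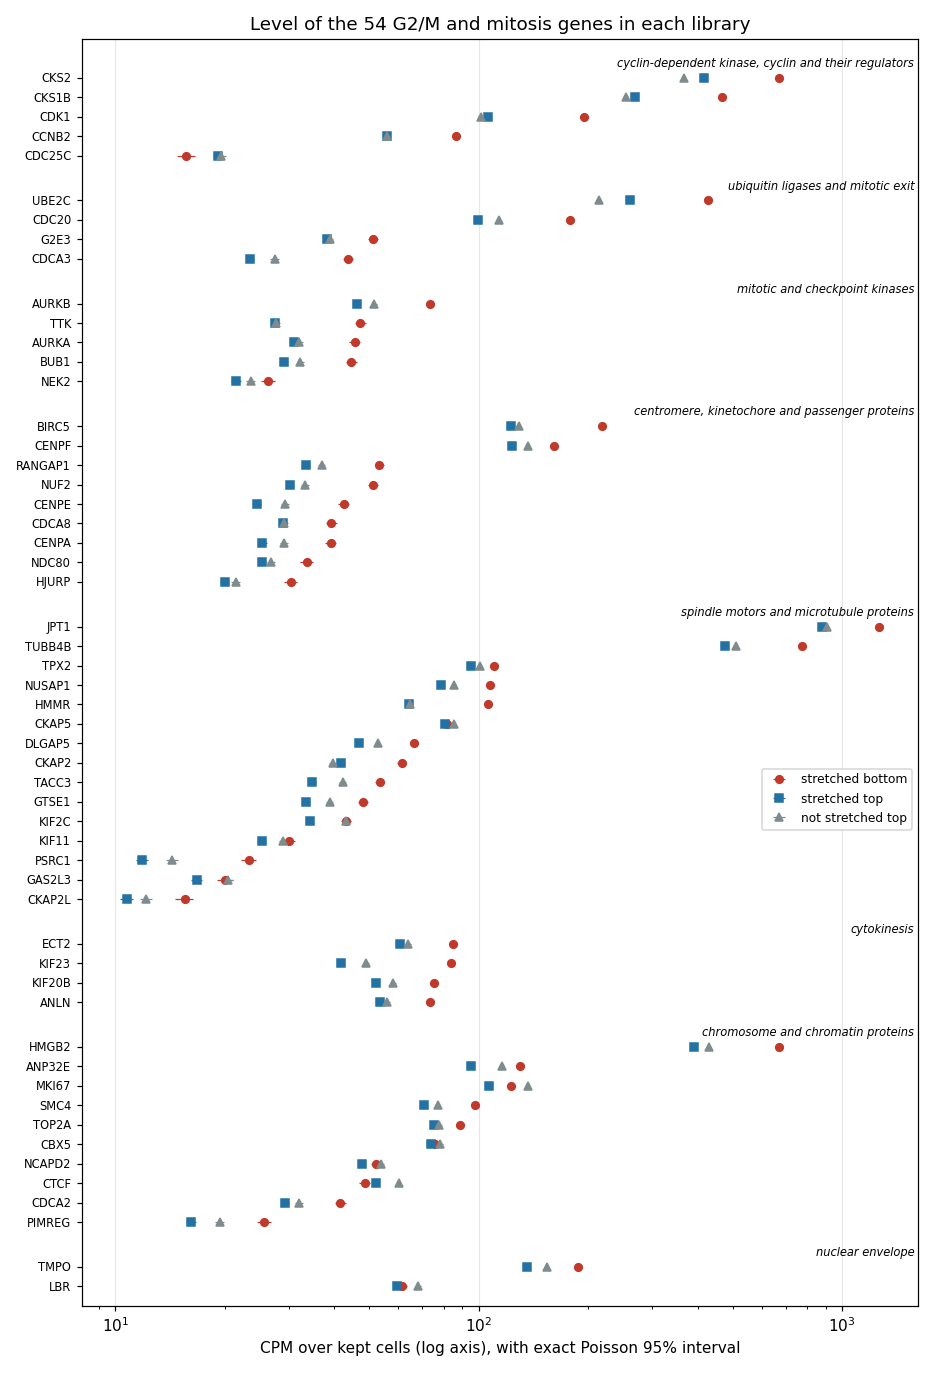
Level of each of the 54 genes in CPM over kept cells (log axis), grouped by role, in stretched bottom (circles), stretched top (squares) and not stretched top (triangles), 1 library each, with exact Poisson 95% intervals. For 45 genes the circle is the rightmost symbol, and CDC25C has it clearly to the left, at 15.7 CPM against 19.2 and 19.5 CPM.

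Of the kinase that drives entry into mitosis and its partners, 4 of 5 were higher in stretched bottom than in stretched top, with a median log2 ratio of 0.68. This count and those of the groups below are over all kept cells, where 7.93% of all tested genes were higher. In cells of 20000 to 60000 UMIs 0 of the 54 members were higher. CDK1, the mitotic kinase itself, had 195 CPM in stretched bottom, 106 CPM in stretched top and 102 CPM in not stretched top, which is 1.84-fold (1.81 to 1.88) between stretched bottom and stretched top. The 2 top libraries lay close together and far below stretched bottom. Its small subunit CKS1B had 468, 268 and 255 CPM in the same order of libraries (1.74-fold, 1.72 to 1.77). The related subunit CKS2 had 669 CPM in stretched bottom, 417 CPM in stretched top and 368 CPM in not stretched top. CCNB2 had 86.8, 55.8 and 56.0 CPM in stretched bottom, stretched top and not stretched top (1.56-fold, 1.51 to 1.60). CDC25C, the phosphatase that removes inhibitory phosphates from CDK1, went the other way without passing the threshold, at 15.7 CPM in stretched bottom, 19.2 CPM in stretched top and 19.5 CPM in not stretched top (log2 ratio -0.28). CKS1B and CKS2 share a closely similar stretch near their 3′ end with other annotated genes, as do CDC20, HMGB2 and CTCF. None of those other genes is in the count matrices, and how reads matching both were treated for these 5 is uncertain.

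Among the ubiquitin and mitotic exit genes, 3 of 4 were higher in stretched bottom (median log2 ratio 0.77). UBE2C, the enzyme that hands ubiquitin to the anaphase-promoting complex, had 427 CPM in stretched bottom, 261 CPM in stretched top and 214 CPM in not stretched top. CDC20 had 178, 99.5 and 114 CPM in stretched bottom, stretched top and not stretched top (1.79-fold, 1.75 to 1.83). CDCA3, a ubiquitin ligase adaptor that promotes mitotic entry, had 43.7 CPM in stretched bottom, 23.5 CPM in stretched top and 27.4 CPM in not stretched top (1.86-fold, 1.78 to 1.94). Stretched bottom was the highest library for each of these genes. G2E3, a ubiquitin ligase of the G2 phase, had 51.3, 38.1 and 38.9 CPM and did not pass.

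Of 5 mitotic and checkpoint kinases, 3 were higher in stretched bottom than in stretched top (median log2 ratio 0.60). TTK, the kinase that starts the spindle checkpoint, had 47.2 CPM in stretched bottom, 27.5 CPM in stretched top and 27.7 CPM in not stretched top. AURKB, the kinase of the chromosomal passenger complex, had 73.5, 46.2 and 51.6 CPM in the same libraries. BUB1, a checkpoint kinase of the kinetochore, had 44.6, 29.1 and 32.3 CPM and lay just past the threshold at a log2 ratio of 0.60. AURKA, the spindle pole kinase, had 45.5 CPM in stretched bottom, 31.0 CPM in stretched top and 32.0 CPM in not stretched top and lay just under it. NEK2, a kinase of centrosome separation, had 26.4, 21.5 and 23.6 CPM, closer between libraries than the other 4.

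The centromere, kinetochore and passenger genes had 5 of 9 members higher in stretched bottom (median log2 ratio 0.60). BIRC5 (survivin), the passenger subunit that brings AURKB to the centromere, had 219 CPM in stretched bottom, 123 CPM in stretched top and 129 CPM in not stretched top (1.78-fold, 1.75 to 1.82). CENPE, a kinetochore motor, had 42.5, 24.5 and 29.4 CPM in that order. NUF2, a microtubule-binding kinetochore subunit, had 51, 30.3 and 33.3 CPM. These 3 genes were lowest in stretched top. RANGAP1, an activator of the Ran GTPase that also sits at kinetochores, had 53.3 CPM in stretched bottom, 33.5 CPM in stretched top and 37.0 CPM in not stretched top. CENPA, the centromeric histone, had 39.1, 25.4 and 29.1 CPM. HJURP, the chaperone that loads CENPA, had 30.4 CPM in stretched bottom, 19.98 CPM in stretched top and 21.4 CPM in not stretched top; its CPM ratio was 1.52 but its log2 ratio with 1 CPM added was 0.58, so it was not counted. CDCA8, NDC80 and CENPF did not pass. CENPF, a large kinetochore protein of G2 cells, had 161, 123 and 136 CPM in stretched bottom, stretched top and not stretched top.

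The spindle group was split: 4 of 15 members passed upwards and 11 did not (median log2 ratio 0.49). PSRC1, a microtubule-binding protein, had 23.3 CPM in stretched bottom, 11.8 CPM in stretched top and 14.3 CPM in not stretched top (1.97-fold, 1.85 to 2.09). HMMR had 106, 64.2 and 64.8 CPM in the same order. TUBB4B, a beta tubulin, had 777, 475 and 510 CPM. For all 3 genes the top libraries were the lower pair. TACC3, which cross-links spindle microtubules, had 53.4 CPM in stretched bottom, 34.8 CPM in stretched top and 42.2 CPM in not stretched top. JPT1, the member with the highest CPM in each library, had 1266, 878 and 909 CPM and stayed under the threshold at a log2 ratio of 0.53. At the other end, CKAP5, a microtubule polymerase that works with TACC3, had 81.5 CPM in stretched bottom, 80.7 CPM in stretched top and 85.3 CPM in not stretched top, with a fold interval of 0.981 to 1.04. TPX2, the activator of AURKA on the spindle, had 110, 95.3 and 101 CPM, and KIF11, the motor that keeps spindle poles apart, had a log2 ratio of 0.24. NUSAP1, a spindle protein, had a log2 ratio of 0.44, but 69.3% of its last 1000 exonic bases overlap another annotated gene, which leaves its counts uncertain.

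In the cytokinesis group 1 of 4 members passed. KIF23, part of the centralspindlin complex, had 83.8 CPM in stretched bottom, 41.9 CPM in stretched top and 49.0 CPM in not stretched top, the largest ratio of the 54 genes (2.00-fold, 1.94 to 2.07). ECT2, a protein of division furrow placement, had a log2 ratio of 0.48, the scaffold ANLN 0.45 and the motor KIF20B 0.52. All of them lay above the median of all genes without passing.

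Of the chromosome and chromatin genes, 2 of 10 were past the threshold (median log2 ratio 0.34). HMGB2, a DNA-bending chromatin protein, had 670 CPM in stretched bottom, 390 CPM in stretched top and 429 CPM in not stretched top. PIMREG had 25.7, 16.1 and 19.4 CPM in that order. MKI67 had 123 CPM in stretched bottom, 107 CPM in stretched top and 137 CPM in not stretched top, so its highest library was not stretched top. TOP2A, the topoisomerase that untangles sister chromatids, had 88.6, 75.1 and 77.9 CPM. The standard proliferation markers MKI67 and TOP2A thus had log2 ratios of 0.20 and 0.24, well below the members' median. NCAPD2, a condensin subunit, had 52.3 CPM in stretched bottom, 47.7 CPM in stretched top and 54 CPM in not stretched top. CBX5, a heterochromatin protein, had 75.9, 73.7 and 78.5 CPM. CTCF had 48.5 CPM in stretched bottom, 52.2 CPM in stretched top and 60.2 CPM in not stretched top (log2 ratio -0.10), with CDC25C 1 of the 2 members below 0. Neither nuclear envelope gene passed (median log2 ratio 0.25): LBR, the lamin B receptor, had 61.6, 59.6 and 68.2 CPM, and TMPO, a lamin-binding protein, had 187, 136 and 154 CPM in stretched bottom, stretched top and not stretched top.

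Between the 2 top libraries, stretched and not stretched, no member passed 1.5-fold in either direction. The count was 0 of 54 higher, where 0.175% of 9119 tested genes passed, and 0 of 54 lower, where 0.592% passed. The members' log2 ratios ran from -0.36 for MKI67 to 0.29 for UBE2C with a median of -0.13. All tested genes had a median of -0.16, and the members' median lay close to it; with scaling by the trimmed mean of M values (TMM) the medians were 0.04 for members and 0.02 for all genes. The 5 members above 0 were UBE2C, CKS2, CKAP2, CKS1B and CDK1. UBE2C had 261 CPM in stretched top and 214 CPM in not stretched top (1.22-fold, 1.20 to 1.23), and in cells of 20000 to 60000 UMIs its log2 ratio was 0.32. MKI67, with 107 CPM in stretched top and 137 CPM in not stretched top, had a log2 ratio of -0.32 in the same depth range. KIF2C, a microtubule depolymerase, had 34.3 CPM in stretched top and 43.1 CPM in not stretched top. These differences were below 1.5-fold, and without replicate chips their spread between experiments is unknown.

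The same direction was seen cell by cell over all kept cells, in sums to which a few abundant members contributed much. The 5 members with the highest CPM were JPT1, TUBB4B, HMGB2, CKS2 and CKS1B. They held 49.6% of the member UMIs in stretched bottom, 47.0% in stretched top and 45.7% in not stretched top. The members took 0.777% of all UMIs in stretched bottom, 0.517% in stretched top and 0.541% in not stretched top, and the median kept cell gave 0.690%, 0.323% and 0.344%. To count over a fixed number of UMIs, each cell was thinned at random to 3000 UMIs, leaving out 242, 1205 and 1507 shallower cells of the 3 libraries. The median thinned cell then held 20 member UMIs in stretched bottom, 9 in stretched top and 10 in not stretched top, and 12, 7 and 7 of the 54 genes were detected in it. Taking as an upper range the cells with 20 or more member UMIs, the 75th percentile of not stretched top, 51.4% (49.0 to 53.8) of stretched bottom cells lay in it, against 25.7% (25.1 to 26.4) of stretched top and 26.2% (25.5 to 26.9) of not stretched top cells. Thinning does not make the cells alike in the depth they were sequenced to: among cells with 20000 to 60000 UMIs the upper range held 47.8% of stretched bottom, 43.7% of stretched top and 43.9% of not stretched top cells, and under a stricter cell filter 54.1%, 40.4% and 38.6%. This range has no gap at its edge: 42, 366 and 293 cells lay exactly on it, and it names no cell cycle phase.

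**Figure D2:**
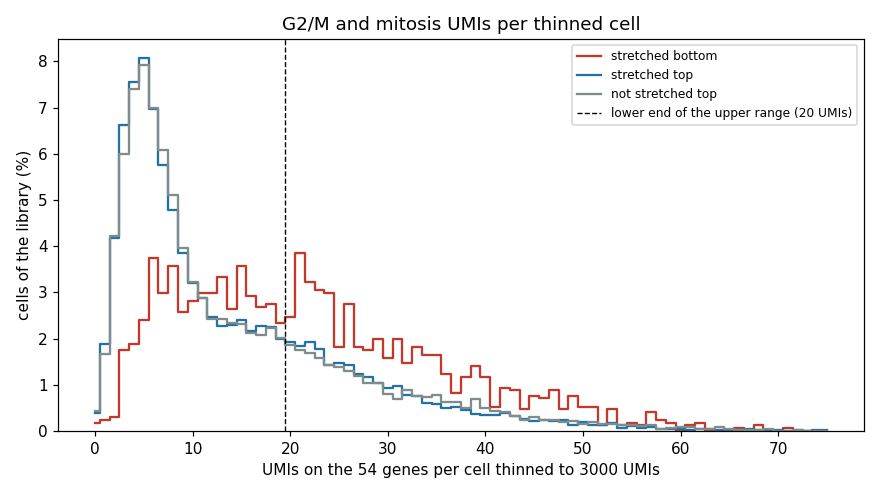
Share of cells of each library (%) by the number of UMIs on the 54 genes after thinning to 3000 UMIs per cell, for stretched bottom, stretched top and not stretched top; the dashed line marks the lower end of the upper range at 20 UMIs. Stretched bottom is spread to the right (median 20), and the 2 top libraries nearly coincide with most cells below the line (medians 9 and 10).

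Within the upper range the libraries resembled each other more, and single members differed in both directions. The members took 1.04% of UMIs in upper-range cells of stretched bottom, 0.958% in those of stretched top and 1.00% in those of not stretched top, and 0 members were 1.5-fold higher and 1 was lower between stretched bottom and stretched top (median log2 ratio 0.03), where 4.17% and 10.0% of all genes passed upwards and downwards (median -0.06). In these cells CKS1B had 565 CPM in stretched bottom, 388 CPM in stretched top and 364 CPM in not stretched top. MKI67 had 182, 235 and 294 CPM in the same order, and TOP2A had 134, 173 and 178 CPM. CDC25C had 22.5 CPM in upper-range cells of stretched bottom, 42.4 CPM in those of stretched top and 43.2 CPM in those of not stretched top (log2 ratio -0.88 between stretched bottom and stretched top). Below the range the members took 0.430%, 0.315% and 0.318%, and 9 of the 47 members that reached 10 CPM there were 1.5-fold higher in stretched bottom than in stretched top and 0 lower, where 8.28% and 9.40% of all genes were. KIF23 was among them with 37.6 CPM in stretched bottom, 19.0 CPM in stretched top and 21.4 CPM in not stretched top, and so was AURKB with 38.4, 22.2 and 22.5 CPM. The cells were ranged by the members themselves, so these values are descriptions.

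The members differed widely in how far each followed the others from cell to cell. For each gene, cells were ranked by the thinned UMIs of the other 53 genes, and its CPM in the 25% of cells richest in them was divided by that in the 25% poorest. The ratio had a median of 10.6 in stretched bottom, 15.6 in stretched top and 15.7 in not stretched top, and it was above 1.5 for all 54 genes in all 3 libraries. It reached at least 10 in all 3 libraries for 26 genes and stayed under 3 in all 3 for 7. DLGAP5, which stabilises the fibres between pole and kinetochore, had 25.3 in stretched bottom, 54.1 in stretched top and 43.5 in not stretched top. GTSE1, a microtubule-bound protein of G2 and mitosis, had 31.5, 50.1 and 43.2, and NEK2 had 19.5, 46.9 and 40.3. These genes were concentrated in cells rich in the other members. CTCF had 1.67, 1.67 and 1.69 in stretched bottom, stretched top and not stretched top, CBX5 had 1.71, 1.79 and 1.65, and JPT1 had 1.70, 2.12 and 2.20. CKS1B, although called higher in stretched bottom, was also of this flat kind, with 2.28, 2.42 and 2.32. No such ratio was computed for genes outside the module, so its background level is not known. The richest cells were also deeper than the poorest. For CTCF their median depth was 50122 against 36168 UMIs in stretched bottom and 12244 against 7457 UMIs in stretched top. The ratio was lower in stretched bottom than in both top libraries for 45 of 54 genes; depth and the number of cells (1951 kept in stretched bottom) differed alongside, and their part in this was not tested.

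**Figure D3:**
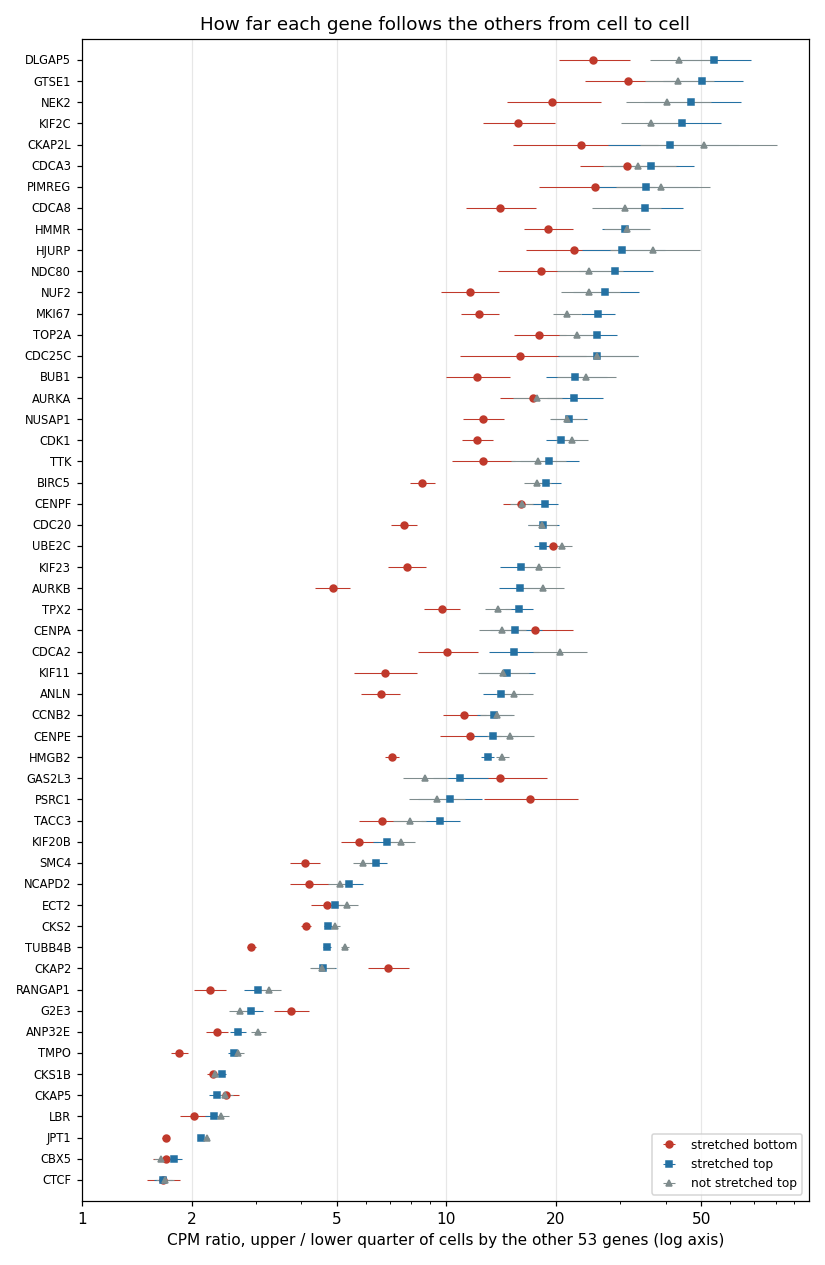
CPM ratio of each gene between the 25% of cells richest and the 25% poorest in the other 53 genes (log axis), in stretched bottom, stretched top and not stretched top, with exact 95% intervals for counting error. Ratios run from 1.67 for CTCF to 54.1 for DLGAP5 in stretched top, and the stretched bottom symbol is the leftmost for 45 genes.

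The share of UMIs on the members moved with the depth of a cell and with its MT- share inside every library. In 4 groups of near equal cell number by depth it was 0.653%, 0.628%, 0.715% and 0.885% from the shallowest to the deepest cells of stretched bottom, 0.315%, 0.380%, 0.520% and 0.619% in stretched top, and 0.360%, 0.379%, 0.510% and 0.655% in not stretched top. In cells with 20000 to 40000 UMIs it was 0.640% in stretched bottom (400 cells), 0.646% in stretched top (1462 cells) and 0.673% in not stretched top (2389 cells). The libraries did not keep their order there. Most stretched bottom cells of any depth bin (854 cells) had 40000 to 80000 UMIs, with a share of 0.781%. In that bin it was 0.820% in stretched top (12 cells) and 0.733% in not stretched top (103 cells). In cells with under 5% MT- UMIs the share was 0.822%, 0.768% and 0.804% in stretched bottom, stretched top and not stretched top, and with 5 to 10% it was 0.616%, 0.614% and 0.622%. In cells with 10 to 20% it was 0.510%, 0.393% and 0.378%. In the shallowest cells, with 1000 to 5000 UMIs, the share was 0.824% in stretched bottom (314 cells, median 2.88% MT- UMIs), 0.338% in stretched top (2939 cells, 11.2%) and 0.502% in not stretched top (2336 cells, 3.21%). In stretched bottom and not stretched top that was above the share at 5000 to 10000 UMIs (0.668% and 0.345%), and these were the libraries whose shallowest cells were low in MT- UMIs.

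**Figure D4:**
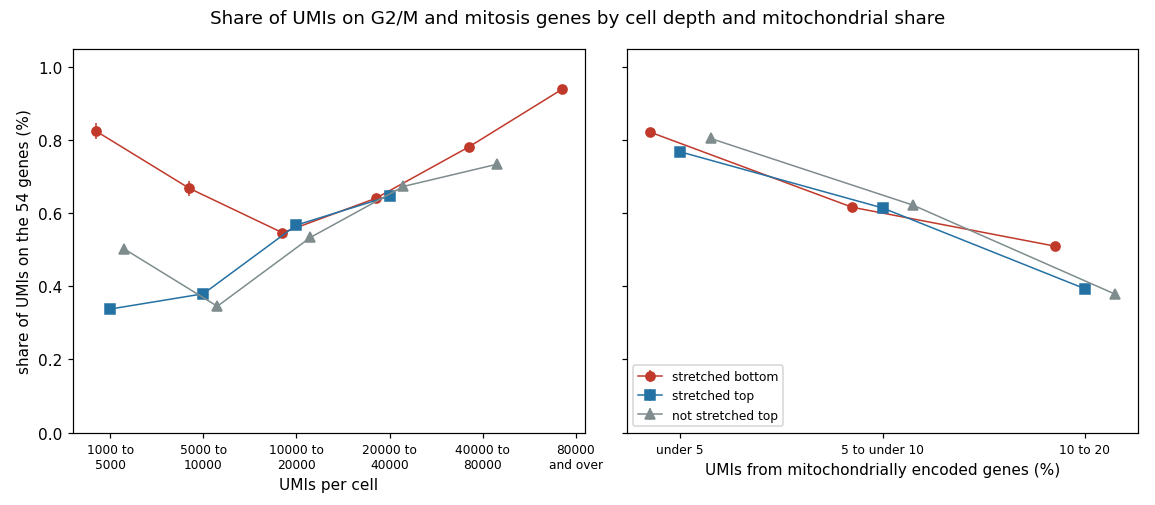
Share of UMIs on the 54 genes (%) in kept cells by UMIs per cell (left) and by MT- share (right), for stretched bottom, stretched top and not stretched top; bars are exact 95% intervals for counting error, and bins with under 20 cells are left out. The 3 libraries lie close together at 20000 to 40000 UMIs (0.640%, 0.646% and 0.673%) and at 5 to 10% MT- UMIs (0.616%, 0.614% and 0.622%). Stretched bottom stands above the others in the shallowest cells.

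In 3 matched selections of cells, few members passed 1.5-fold between stretched bottom and stretched top. Other bins were compared only by the members' share of UMIs, and some kept a difference. At 5000 to 10000 UMIs the share was 0.668% in stretched bottom (87 cells) and 0.379% in stretched top (8088 cells). At 10 to 20% MT- UMIs it was 0.510% (199 cells) and 0.393% (10954 cells). At 10000 to 20000 UMIs stretched bottom was the lower, at 0.546% (156 cells) against 0.567% (7620 cells). In cells with 20000 to 60000 UMIs (998 of stretched bottom, 1474 of stretched top and 2490 of not stretched top), 24 of 54 log2 ratios between stretched bottom and stretched top were above 0, and none of the 22 genes stayed past 1.5-fold; over all genes 4.73% passed upwards and 9.55% downwards, and the median was -0.03. The members together took 0.695% of UMIs in stretched bottom, 0.649% in stretched top and 0.676% in not stretched top there. Median depth in this range still differed, at 43150, 23180 and 24671 UMIs. With under 5% MT- UMIs 0 members were higher and 1 was lower, where 2.96% and 8.89% of all genes were. The members' median there was 0.04 against -0.10 for all genes, and 36 of 54 members lay above the median of all genes. With 5 to 10% MT- UMIs 1 member was higher and 1 was lower, where 4.70% and 5.44% of all genes were, and the median was -0.05 against 0.03 for all genes. The lower member was CDC25C in all 3 selections. At 20000 to 60000 UMIs CDC25C had 14.0 CPM in stretched bottom, 27.5 CPM in stretched top and 26.7 CPM in not stretched top (log2 ratio -0.93). The higher member was CENPE, with 45.8, 29.2 and 33.9 CPM at 5 to 10% MT- UMIs.

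Some members had log2 ratios of the same sign in each of the 3 matched selections, which overlap in part. The same counts were not made over all genes, so they are descriptions. Log2 ratios between stretched bottom and stretched top were above 0 over all kept cells and in all 3 matched selections for 17 members, 13 of them among the 22. At 20000 to 60000 UMIs CKS1B had 441 CPM in stretched bottom, 318 CPM in stretched top and 295 CPM in not stretched top (log2 ratio 0.47), and CDC20 had 161, 118 and 137 CPM (0.45). KIF23 had 73.0, 59.6 and 66.2 CPM (0.29). For 20 members the log2 ratios were below 0 in all 3 matched selections, and none of the 22 was among them. The 22 had been called over all kept cells, which include the matched cells. MKI67 had 106 CPM in stretched bottom, 151 CPM in stretched top and 188 CPM in not stretched top at 20000 to 60000 UMIs (log2 ratio -0.51). TOP2A had 74.8, 108 and 104 CPM (-0.52), and TPX2 had 91.2, 135 and 136 CPM (-0.56). CDK1, at 151, 159 and 153 CPM, was nearly level.

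**Figure D5:**
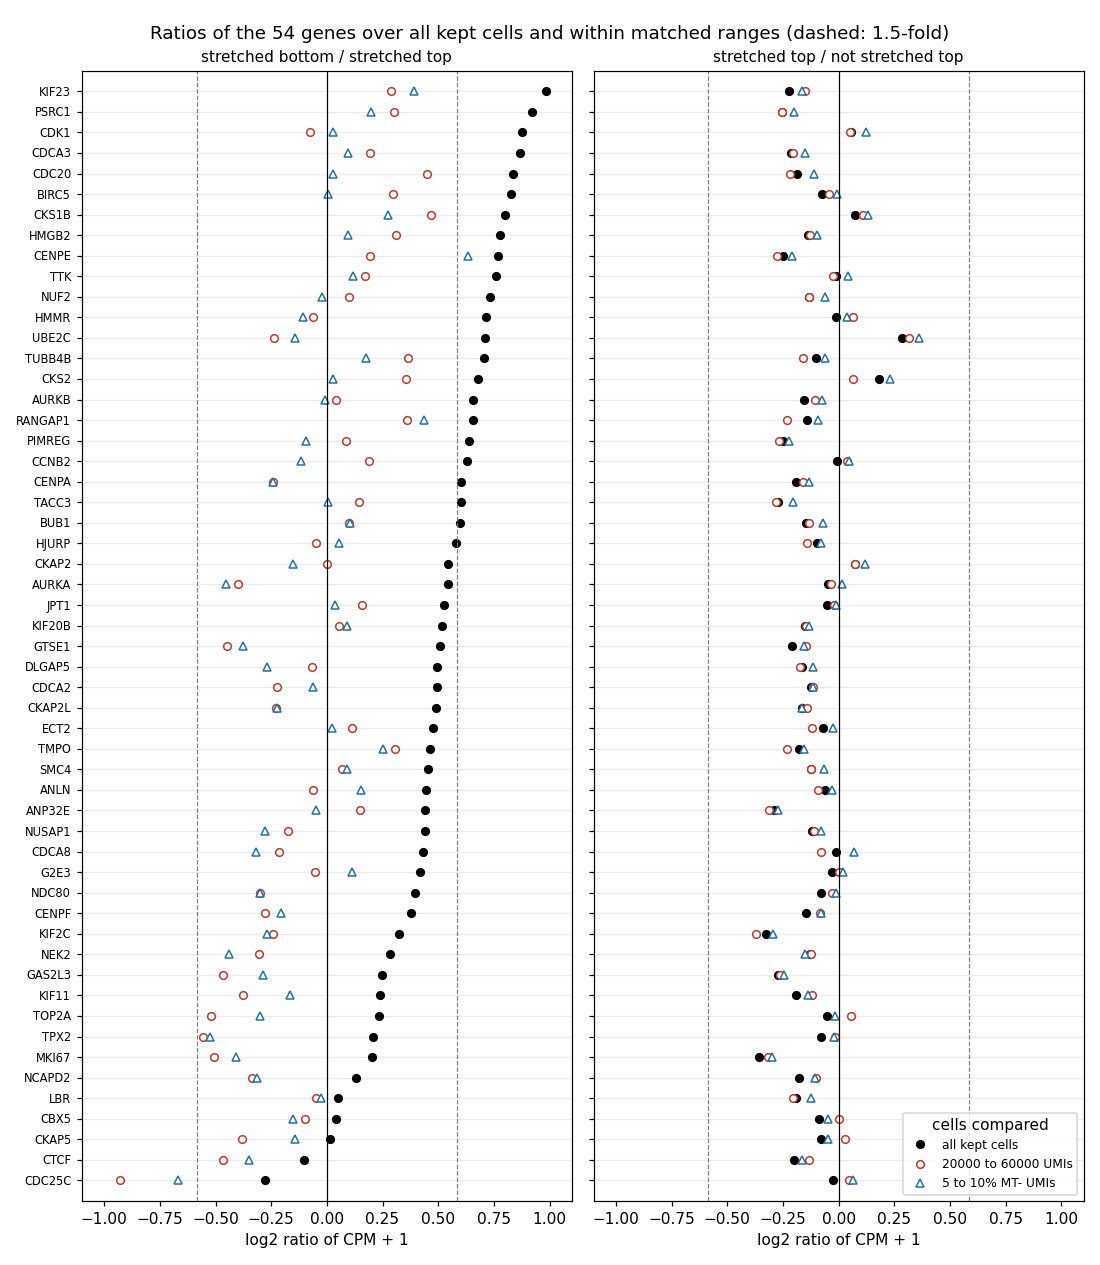
Log2 ratio of CPM + 1 for each of the 54 genes, stretched bottom over stretched top (left) and stretched top over not stretched top (right), over all kept cells (filled), cells of 20000 to 60000 UMIs (open circles) and cells with 5 to 10% MT- UMIs (open triangles); dashed lines mark 1.5-fold. On the left 22 filled symbols lie past the line and the open symbols scatter around 0, with CDC25C at -0.93; on the right all lie between the lines.

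Gene length went along with the ratios. All 10 members spanning under 10 kb of genome were higher in stretched bottom than in stretched top (median log2 ratio 0.74), against 4 of 15 spanning 10 to 30 kb (0.49) and 8 of 29 spanning over 30 kb (0.46); the bounds were chosen after the values were seen. The short genes include HMGB2, CKS1B, CKS2, CDC20, UBE2C, TUBB4B and PSRC1. Over all tested genes in those 3 classes, 16.6%, 11.3% and 3.72% were higher, and the medians were 0.19, 0.16 and -0.13. In cells of 20000 to 60000 UMIs the members' medians were 0.31, -0.07 and -0.07, and those of all tested genes 0.15, 0.10 and -0.15. There 0 of the 10 short members passed 1.5-fold. With 5 to 10% MT- UMIs the medians were 0.06, -0.15 and -0.11 for members and 0.12, 0.09 and -0.02 for all tested genes. With under 5% MT- UMIs they were 0.26, -0.05 and -0.04 for members and 0.07, 0.003 and -0.19 for all tested genes.

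Other cell cycle lists showed where the members stand. Of 59 other G2/M and mitosis genes tested, 24 were 1.5-fold higher in stretched bottom than in stretched top and 0 lower (median log2 ratio 0.53), beside the 22 of 54 members. Of all tested genes 7.93% were higher and 11.0% lower. All these lists were compared over all kept cells only. How they stand in cells matched for depth or MT- share was not tested. CCNB1, the main mitotic cyclin, had 216 CPM in stretched bottom, 143 CPM in stretched top and 144 CPM in not stretched top. CCNA2, the cyclin of S and G2 phase, had 68.9, 39.9 and 42.3 CPM, and PLK1, a master mitotic kinase, had 65.7, 40.5 and 48.0 CPM. Of the transcription factors of the G2 program, FOXM1 was flatter, with 26.7 CPM in stretched bottom, 25.1 CPM in stretched top and 26.9 CPM in not stretched top. MYBL2 had 38.3, 28.6 and 38.8 CPM in the same order and was lowest in stretched top. DEPDC1, a mitotic protein, had the largest ratio of that list at 123, 48.9 and 45.9 CPM (2.52-fold, 2.45 to 2.59). MAD2L1, the checkpoint inhibitor of CDC20, had 251, 130 and 130 CPM. Genes of S phase had 12 of 42 higher and 0 lower (median 0.43).

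Core subunits of the anaphase-promoting complex, the ligase that CDC20 and UBE2C work with, had 0 of 14 past the threshold in either direction (median log2 ratio 0.14). Of 22 cyclin-dependent kinase inhibitors and G1 regulators, 2 were higher and 4 lower (median -0.01). The share of these that were higher, 9.09%, was near the 7.93% of all tested genes, of which 11.0% were lower. CDKN1A (p21), an inhibitor of cyclin-dependent kinases, had 93.0 CPM in stretched bottom, 72.5 CPM in stretched top and 62.7 CPM in not stretched top. CDKN1C (p57), an inhibitor of the same family, had 4.40, 23.0 and 26.2 CPM (log2 ratio -2.16 between stretched bottom and stretched top). In none of these 4 lists did a gene pass 1.5-fold between stretched top and not stretched top. Of all tested genes 0.175% were higher and 0.592% lower there.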

How the data were processed

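Single-cell libraries of sorted HCT116-H2b-GFP cells were made with a 10x 3′ kit, with a target of about 10000 droplets a sample and 12 PCR cycles per the labels' protocols. The authors deposited 1 matrix of raw UMI counts per library, written by Cell Ranger 7.0.0 per the file headers, on hg38 per the submitters' processing notes; the annotation counted is not given in the sources used here. No normalized values were used.

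Kept cells had at least 500 genes, 1000 UMIs and at most 20% MT- UMIs. No doublet caller was run; an alternative leaves out the 10% of cells with the most UMIs. UMIs were summed over kept cells and scaled to CPM of the library total; 3 counts, the limit that a count of 0 allows, correspond to 0.0391 CPM in stretched bottom, 0.0142 in stretched top and 0.0141 in not stretched top. Ratios are log2 with 1 CPM added, over genes of at least 10 CPM in either library, called at 1.5-fold. With 1 library per group there is no test and no p-value. Intervals are exact (Poisson for CPM, conditional binomial for folds, Clopper-Pearson for shares) at 95% and cover counting error only. Only the ratio and call steps were tested on simulated data, as whole-library counts with known folds. The simulation held no single cells, so it cannot speak to differences in depth or MT- share between cells. Alternatives covered cell filters, depth range, cell weights, thinning, TMM (edgeR 4.0.16) and median-of-ratios scaling, pseudocounts, CPM minimum and threshold. Gene spans come from GENCODE on GRCh38.

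The members and all lists were chosen with earlier results of these data known. Values in every library are given for members past 1.5-fold in either comparison, for MKI67, TOP2A, CDK1 and CENPF, and for those with the highest CPM, the ratio nearest 0 and the extreme cell-to-cell contrast; others were added where a result turns on them. Of the other G2/M list, 60 genes were in the files. Python 3.11.15, numpy 2.4.6, scipy 1.17.1 and pandas 2.3.3 were used.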

Additional observations from a re-analysis of the deposited data

How the results depend on the processing

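The higher level of the members in stretched bottom than in stretched top depended on which cells were compared, and no member of the 22 passed 1.5-fold under all 15 alternatives. Against 22 higher and 0 lower, the stricter cell filter (2000 genes, 5000 UMIs, 10% MT- UMIs) gave 3 higher and 1 lower (4.01% and 10.2% of all genes), cells with 20000 to 60000 UMIs gave 0 and 1 (4.73% and 9.55%), totals without MT- and ribosomal protein genes gave 12 and 0 (4.03% and 17.3%), and a 2-fold threshold gave 0 and 0 (1.27% and 3.38%). In 2 selections chosen after seeing the data, cells with under 5% MT- UMIs gave 0 higher and 1 lower (2.96% and 8.89%), and cells with 5 to 10% gave 1 and 1 (4.70% and 5.44%). The median log2 ratio of 0.51 became 0.53 with no cell filter, 0.21 with the stricter filter, -0.053 at 20000 to 60000 UMIs, 0.54 without the 10% of cells with the most UMIs, 0.65 with equal cell weights, 0.60 thinned to 3000 UMIs, 0.55 with TMM, 0.58 with median of ratios, 0.38 without MT- and ribosomal totals, 0.53 with 0.1 CPM added and 0.47 with 5 CPM, 0.035 under 5% MT- UMIs and -0.055 at 5 to 10%. Log2 ratios turned negative at 20000 to 60000 UMIs for CDK1 (-0.075), UBE2C (-0.24), HMMR (-0.062) and CENPA (-0.24), under 5% MT- UMIs for BUB1 (-0.052), and at 5 to 10% for UBE2C (-0.14), NUF2 (-0.023), PIMREG (-0.10), CCNB2 (-0.11), AURKB (-0.0085), HMMR (-0.11) and CENPA (-0.24); the cause was not tested.

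Between stretched top and not stretched top the counts stayed at 0 under every alternative run. The median of -0.13 was -0.095 with no filter, -0.082 with the stricter filter, -0.12 at 20000 to 60000 UMIs, -0.094 without the 10% deepest cells, -0.15 with equal weights, -0.11 thinned, 0.040 with TMM, 0.054 with median of ratios, -0.079 without MT- and ribosomal totals, -0.13 and -0.12 with 0.1 and 5 CPM added, -0.10 at a minimum of 50 CPM, -0.10 under 5% MT- UMIs and -0.078 at 5 to 10%.

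The share of UMIs on the members, in stretched bottom, stretched top and not stretched top, was 0.757%, 0.501% and 0.511% with no filter, 0.784%, 0.638% and 0.650% with the stricter filter, 0.695%, 0.649% and 0.676% at 20000 to 60000 UMIs, 0.728%, 0.483% and 0.496% without the 10% deepest cells, 0.742%, 0.468% and 0.498% with equal weights, 0.726%, 0.459% and 0.472% thinned, 0.822%, 0.768% and 0.804% under 5% MT- UMIs and 0.616%, 0.614% and 0.622% at 5 to 10%. Cells in the upper range made up 54.1%, 40.4% and 38.6% with the stricter filter, 47.8%, 43.7% and 43.9% at 20000 to 60000 UMIs and 44.8%, 26.4% and 25.3% when thinned to 8000 UMIs; thinned to 1000 UMIs, stretched top gave 26.5% and not stretched top 28.8%.

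Each condition is 1 library, so differences between chips, captures and sorts cannot be told apart from stretch or invasion. No paired analysis was possible because each group has 1 library and no test was made. Depth and MT- share differ between stretched bottom and the top libraries, and no selection made both equal.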
